A study of Homo sapiens with 6 samples.

Results

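The genes described here lie near one another on the long arm of human chromosome 7, in band 7q34. They were taken from the deposited expression table by symbol, as the rows named EPHB6, TRPV6, TRPV5, KEL, GSTK1, CASP2 and CLCN1. These are 7 of 27408 genes in the table, with 16 of 59128 transcripts. They were chosen by the TPM of EPHB6 and TRPV6 in these same libraries, so levels and ratios of those 2 genes are a description and carry no test. The other 5 genes are their neighbours.

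Messenger RNA was sequenced from a pair of established pancreatic cancer cell lines, PANC-1 and MIA-PaCa2. Each carried the LPCX control, ESRP1 overexpression or ESRP2 overexpression. The labels name no treatment, and all cells were grown in the same medium with serum. ESRP1 and ESRP2 are epithelial RNA-binding proteins that steer the choice of exons, and their function in the progression of pancreatic cancer was the question. There was 1 library for each line and construct, 6 in all, so no comparison of a construct with LPCX has replicates. Whether each culture was 1 clone or a pool is not given in the sources used here. Values are TPM, transcript abundances corrected for transcript length and scaled to a fixed library total. Where 3 values are given for a line, their order is LPCX, ESRP1, ESRP2. The number of reads is unknown, so no counting interval can be given. In bulk libraries, fewer cells with a message and less message per cell cannot be told apart.

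The introduced genes followed the labels. ESRP1 was at 367 TPM (MIA-PaCa2) and 491 TPM (PANC-1) in the ESRP1 libraries and at 0.261 TPM or less elsewhere. ESRP2 was at 197 TPM (MIA-PaCa2) and 308 TPM (PANC-1) in the ESRP2 libraries, at 34.8 and 37.7 TPM in the other PANC-1 libraries, and at 0.106 TPM or less in the other MIA-PaCa2 libraries. KRT8 and KRT18, keratins of simple epithelia, ranged from 680 TPM (KRT18, PANC-1 ESRP2) to 2223 TPM (KRT8, MIA-PaCa2 ESRP1). EPCAM and CDH1, further epithelial markers, were at 24.3 and 3.89 TPM in PANC-1 LPCX, while MIA-PaCa2 LPCX had 0 and 0.157 TPM. In MIA-PaCa2 the 6 epithelial markers summed to 3428 to 4283 TPM with EPCAM at 0, and the mesenchymal markers to 5545 to 5645 TPM. VIM made up nearly all of that mesenchymal sum, at 5523 to 5620 TPM, while CDH2 was at 0.0212 TPM or less. The MIA-PaCa2 ESRP1 library stood apart in haemoglobin messages, whose values are given beside KEL.

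The neighbourhood joins genes of unrelated function. EPHB6 encodes a receptor for ephrins, membrane-bound ligands that signal between touching cells, and is a member of the Eph family whose own kinase domain is inactive. TRPV6 and TRPV5 encode closely related calcium channels of absorbing epithelia, known from gut, placenta and pancreas for TRPV6 and from the kidney for TRPV5. KEL encodes the Kell blood group antigen, a membrane endopeptidase of red cell precursors. GSTK1 encodes a glutathione transferase of mitochondria and peroxisomes, CASP2 the initiator caspase of the PIDDosome, and CLCN1 the chloride channel of skeletal muscle.

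On GRCh38.p14, with RefSeq positions, EPHB6 spans chr7:142855076-142871093 on the plus strand. TRPV6 lies at chr7:142871208-142885745 on the minus strand, so the 3′ ends of EPHB6 and TRPV6 face each other across 114 bases. TRPV5 (chr7:142908101-142933746) and KEL (chr7:142941114-142962363) follow on the minus strand. GSTK1 (chr7:143263441-143269115), CASP2 (chr7:143288351-143307696) and CLCN1 (chr7:143316111-143352083) lie further along on the plus strand, and the whole span is 497 kb. The submitters' processing notes name GRCh38 as well, and the deposited table gives no positions of its own.

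The 250 bases before an annotated start are shown for EPHB6, TRPV6 and GSTK1, as examples of genes near 0 in one line and of a gene on in both, and those of CASP2 are described. Capitals mark CG pairs, which are dense at the starts of many broadly expressed genes. The windows come from RefSeq on GRCh38.p14, are written along each gene's strand, and lie at chr7:142862506-142862755 for EPHB6, chr7:142885746-142885995 for TRPV6 and chr7:143263191-143263440 for GSTK1.
EPHB6: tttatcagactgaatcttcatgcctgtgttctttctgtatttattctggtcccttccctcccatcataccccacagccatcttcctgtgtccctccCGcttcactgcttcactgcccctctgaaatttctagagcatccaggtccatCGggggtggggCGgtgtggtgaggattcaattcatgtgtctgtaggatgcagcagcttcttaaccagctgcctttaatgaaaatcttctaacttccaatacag
TRPV6: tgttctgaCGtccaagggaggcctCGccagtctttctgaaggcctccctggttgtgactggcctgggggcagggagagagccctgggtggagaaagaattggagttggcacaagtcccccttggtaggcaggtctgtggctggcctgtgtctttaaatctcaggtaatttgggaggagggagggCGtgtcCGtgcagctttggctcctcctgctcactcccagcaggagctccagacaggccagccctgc
GSTK1: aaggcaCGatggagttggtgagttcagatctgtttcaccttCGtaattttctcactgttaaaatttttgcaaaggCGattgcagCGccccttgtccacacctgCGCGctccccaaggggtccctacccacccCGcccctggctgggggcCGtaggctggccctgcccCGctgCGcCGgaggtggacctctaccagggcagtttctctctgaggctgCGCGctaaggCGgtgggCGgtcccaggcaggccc

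EPHB6 had 3 CG pairs in this window and TRPV6 had 4, against 15 in GSTK1 and 29 in CASP2 (chr7:143288101-143288350). The median over 35116 promoter windows of the same length was 11, and 29.3% and 34.3% of them had as few CG pairs as EPHB6 and TRPV6. The windows of TRPV5, KEL and CLCN1 held 2, 0 and 3. A second annotated CASP2 start, further along the gene, had 2, fewer than EPHB6 or TRPV6. Which CASP2 start was in use was not measured. Whether CG pairs sort these genes by where they were on was not tested. The EPHB6 window lies inside the RefSeq gene span, since other annotated transcripts start upstream. The E-box CACCTG, bound by ZEB1 and SNAI repressors, was searched on both strands and had no match at EPHB6, TRPV6 or CASP2 and 1 each at GSTK1 and CLCN1, and it is present in 17.5% of all windows. The grainyhead-type motif AACCNGTT had no match in the windows of the 7 genes and is present in 1.49% of all windows. TATAAA, the TATA box, occurred among them only in the CLCN1 window, at 2 places, and is present in 10.7% of all windows. A missing match says only that these letters are not in the window.

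EPHB6 was a PANC-1 gene in these libraries, and its level there was lower with either ESRP. It stood at 245 TPM in PANC-1 LPCX, 124 TPM in PANC-1 ESRP1 and 79.2 TPM in PANC-1 ESRP2. In MIA-PaCa2 it stood at 0.114, 0.184 and 0.0440 TPM. Every PANC-1 library was thus above every MIA-PaCa2 library, and the LPCX library was the highest of PANC-1. In the limma fit described below, 43.1% of 11829 genes were called higher in PANC-1, so a difference between these lines is common. With ESRP1 the PANC-1 level was 50.9% of LPCX, a log2 ratio of TPM plus 1 of -0.97. With ESRP2 it was 32.4% of LPCX, a log2 ratio of -1.61.

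TRPV6, the calcium channel gene next to it, showed the same order of libraries at a much lower level. It stood at 8.45 TPM in PANC-1 LPCX, 3.66 TPM in PANC-1 ESRP1 and 1.92 TPM in PANC-1 ESRP2, and was listed at 0 TPM in the 3 MIA-PaCa2 libraries. With ESRP1 the PANC-1 level was 43.3% of LPCX (log2 ratio -1.02), and with ESRP2 22.8% (log2 ratio -1.69). The TRPV6 level was 3.46%, 2.94% and 2.43% of the EPHB6 level in PANC-1. Whether the counting used strand is not given in the sources used here, and a noncoding antisense gene overlaps TRPV6 in the GENCODE annotation. Reads from overlapping or directly adjoining transcripts may therefore be counted under TRPV6, and this was not tested.

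**Figure D1:**
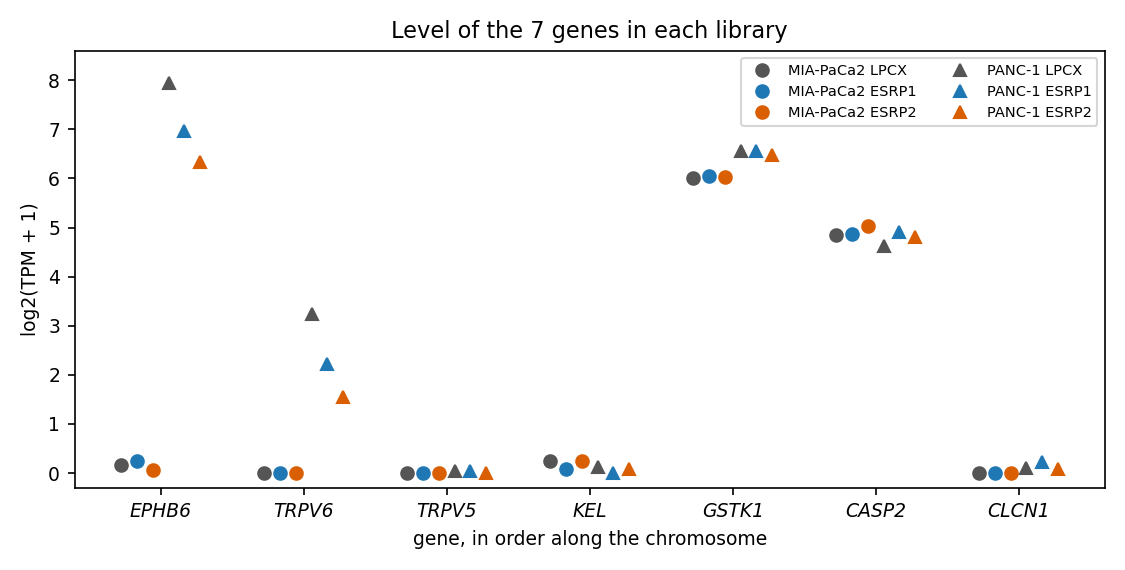
Level of each of the 7 genes on the vertical axis, as log2 of TPM plus 1, with 1 point per library (circles MIA-PaCa2, triangles PANC-1, colours for constructs). EPHB6 and TRPV6 are near or at 0 in MIA-PaCa2 and ordered LPCX, ESRP1, ESRP2 from high to low in PANC-1, while GSTK1 and CASP2 are at 23.5 TPM or more in all 6 libraries and TRPV5, KEL and CLCN1 near 0.

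Among genes with at least 5 TPM in a library compared, 1.14% were lower by 2-fold or more in PANC-1 with ESRP1, and 1.58% with ESRP2. Of the 7 genes, 4 reached that level in PANC-1. TRPV6 was past 2-fold with ESRP1, and EPHB6 and TRPV6 with ESRP2, a count that the choice of genes fixes in part. TRPV6 reached 5 TPM only in LPCX, the library where it was highest, so nothing is read from its count or rank. EPHB6 ranked 133 from the lowest of 11135 genes with ESRP1 and 87 of 11140 with ESRP2, and TRPV6 ranked 126 and 81. EPHB6 was itself chosen by its level in these libraries, so its rank is a description and no evidence. With libraries scaled by median ratios, EPHB6 with ESRP1 was at -1.04, so that 2 genes were past 2-fold. In MIA-PaCa2, 2 of the 7 genes reached 5 TPM, and neither was 2-fold lower (0.742% of genes with ESRP1, 0.808% with ESRP2) or higher (0.538% and 0.808%). No member was 2-fold higher in PANC-1, where 0.368% and 0.377% of genes were. The 2 PANC-1 comparisons share the LPCX library. Among epithelial markers in the same libraries, CDH1 was at 3.89, 8.59 and 6.98 TPM, EPCAM at 24.3, 27.8 and 28.2 TPM, KRT19 at 502, 417 and 366 TPM and KRT7 at 2.00, 1.92 and 1.57 TPM. KRT8 was at 684, 823 and 716 TPM and KRT18 at 695, 737 and 680 TPM. The markers did not share 1 direction, and the 6 summed to 1911, 2016 and 1799 TPM, all 6 above 0. The mesenchymal markers VIM, ZEB1 and CDH2 summed to 4194, 4720 and 4804 TPM, mostly VIM, with CDH2 at 32.4, 51.8 and 47.2 TPM. Their part in the EPHB6 and TRPV6 levels was not tested.

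**Figure D2:**
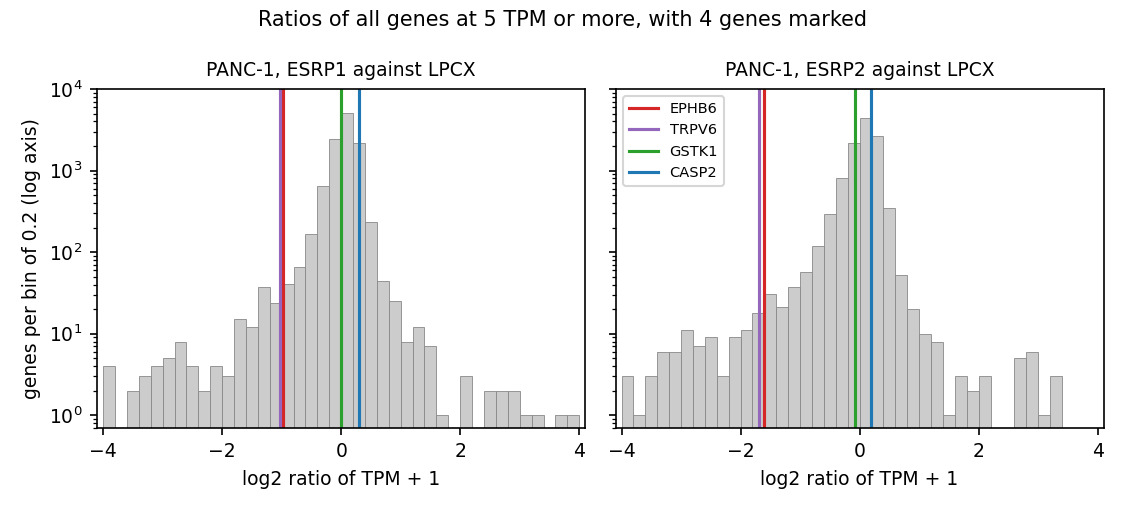
Number of genes (log axis) by log2 ratio of TPM plus 1 to LPCX in PANC-1, for ESRP1 on the left and ESRP2 on the right, for genes that reached 5 TPM in a library compared, with the end bins holding all values beyond them. The lines of EPHB6 and TRPV6 lie in the lower tail at -0.97 and -1.02 with ESRP1 and -1.61 and -1.69 with ESRP2, and those of GSTK1 and CASP2 near the middle. EPHB6 and TRPV6 were chosen by their levels in these libraries, so nothing is read from their place.

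The shares of the EPHB6 forms differed little between the PANC-1 libraries. NM_004445, which GENCODE pairs with a transcript of 17 exons and 1022 codons, took 56.9%, 58.7% and 57.9% of EPHB6 in PANC-1. NM_001280794 took 42.5%, 40.98% and 41.3%. Its paired transcript has 729 codons and starts its coding sequence in a later exon (position 142864680 against 142863228), so it encodes a shorter product. GENCODE pairs NM_001280795 with the same transcript, so their untranslated exons may differ from it. NM_001280795 and NR_104001 each stayed at or under 0.735%. The largest move of an EPHB6 share was 1.80 points with ESRP1 and 1.16 points with ESRP2, against a median over genes of 3.61 and 3.69 points. In MIA-PaCa2 the trace of EPHB6 was assigned to NM_001280794 alone.

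Among Eph receptors the level of EPHB6 set its place in PANC-1. In PANC-1 LPCX it was the second of 14 receptors, with 32.3% of their summed TPM, after EPHA2 at 331 TPM and before EPHB4 at 108 TPM and EPHB2 at 59.4 TPM. In PANC-1 ESRP1 its share was 18.8% and in PANC-1 ESRP2 12.8%, in both cases after EPHB4 (134 and 124 TPM). EPHA2 itself was at 325 and 332 TPM in these libraries. The summed receptor TPM went from 757 in PANC-1 LPCX to 661 and 617, a change of -96.4 and -140 TPM, while EPHB6 alone differed by -120 and -165 TPM. In MIA-PaCa2 EPHB6 had at most 0.0421% of the sum, and EPHA4, at 64.8 to 78.4 TPM, held the third place after EPHA2 and EPHB4.

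**Figure D3:**
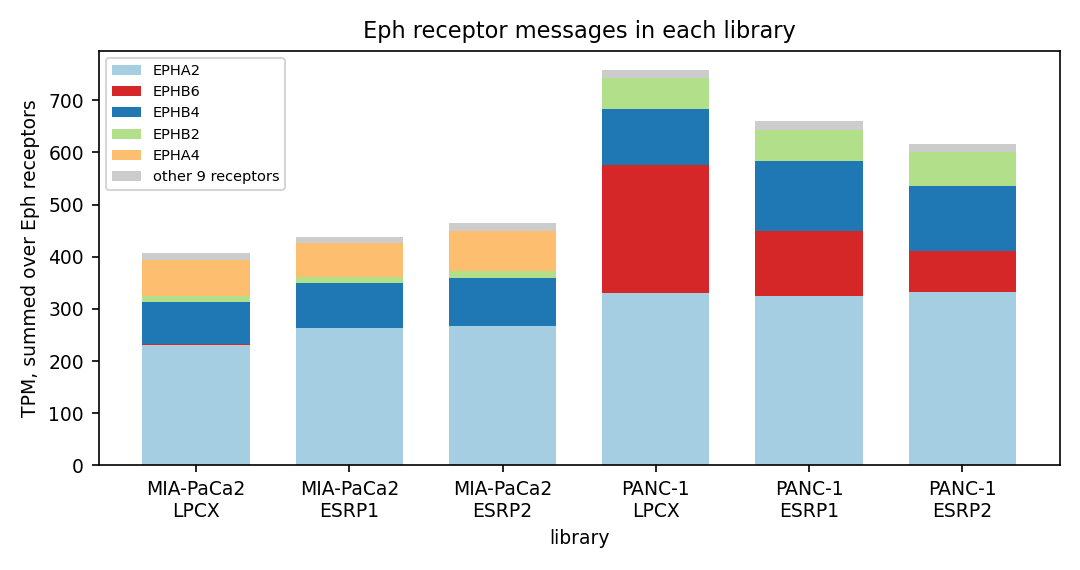
TPM summed over 14 Eph receptors in each library, stacked by receptor. The EPHB6 part is 245 TPM in PANC-1 LPCX, 124 TPM with ESRP1 and 79.2 TPM with ESRP2, and too small to see in MIA-PaCa2, while EPHA2, EPHB4 and EPHB2 keep similar heights within each line.

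Among the other 13 Eph receptors and 8 ephrins, listed from textbook knowledge, those that reached 5 TPM were within 2-fold of LPCX. In PANC-1, 9 of these 21 genes reached 5 TPM and 0 were 2-fold from LPCX with either construct (1.14% of all genes were lower and 0.368% higher with ESRP1, and 1.58% and 0.377% with ESRP2), with median log2 ratios of 0.14 and 0.09 against 0.09 and 0.10 over all genes. EPHB1, a receptor that can pair with EPHB6, did not reach that level and was not counted, at 0.534, 1.61 and 2.04 TPM. In MIA-PaCa2 13 reached it and 0 were 2-fold from LPCX (0.742% of all genes were lower and 0.538% higher with ESRP1, and 0.808% each way with ESRP2), with medians of -0.12 and 0.05 against 0.04 and 0.05. The ephrin-B ligands of EPHB receptors were present in PANC-1 at low levels. EFNB2 stood at 7.14, 10.1 and 9.40 TPM and EFNB1 at 4.94, 5.54 and 6.16 TPM.

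TRPV5, KEL and CLCN1 were near 0 in every library. TRPV5 was listed at 0.0273 and 0.0291 TPM in PANC-1 LPCX and ESRP1 and at 0 in the other 4 libraries. CLCN1 was at 0.0753, 0.169 and 0.0567 TPM in PANC-1 and at 0 in MIA-PaCa2. At such levels the ratios between libraries cannot be read. Markers of the tissues where TRPV5 and CLCN1 are known were also low, with no kidney or skeletal muscle marker reaching 1 TPM in any library. The 4 muscle markers summed to 0.120 to 1.14 TPM and the 3 kidney markers to 0.0164 to 0.0912 TPM.

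KEL, the Kell antigen gene, was at 0.186, 0.0668 and 0.180 TPM in MIA-PaCa2 and at 0.0932, 0 and 0.0665 TPM in PANC-1. The levels of the 2 lines overlap. Haemoglobin messages of red cells were abundant in 1 library, MIA-PaCa2 ESRP1, where HBA1 and HBA2, near-identical copies, summed to 1006 TPM and HBB was at 569 TPM. In the other 5 libraries the same sums were 1.40 to 3.84 TPM and HBB was at 0.675 TPM or less. ALAS2, the erythroid haem synthesis enzyme, was at 0.734 TPM in that library. KEL was near 0 in all 6 libraries, and nothing is read from its order among them.

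GSTK1 was expressed in every library and stood higher in PANC-1. It was at 63.2, 65.4 and 64.4 TPM in MIA-PaCa2 and at 93.1, 93.3 and 87.7 TPM in PANC-1. The lines did not overlap, with means of 64.3 ± 1.10 TPM and 91.4 ± 3.15 TPM (SD, n = 3 libraries with different constructs). The log2 difference was 0.50 (SE 0.0571, adjusted p = 0.000499 with limma over 11829 genes). In that fit 43.1% of genes were higher in PANC-1, so such a call is common between these lines. The constructs of a line stand in for repeat cultures here. For ESRP1 and ESRP2 over both lines GSTK1 was at 0.025 and -0.029 (SE 0.0699, adjusted p = 0.916 and 0.865 with limma).

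The forms of GSTK1 differ around a short stretch of its coding sequence, which is shown because their shares differed between libraries. NM_015917, the main form of 226 codons, removes an intron of 168 bases at chr7:143265093-143265260 and includes the next exon of 36 bases at chr7:143265261-143265296. NM_001143679 keeps the intron, which adds 56 codons without a shift of frame, and NM_001143680 leaves out the exon, which removes 12. The sequences are read from GENCODE release 29 transcripts on GRCh38, plus strand. Capitals mark the splice-site letters at the ends of the intron and the whole 36-base exon between 12 bases of flank that belong to the intron before it and the exon after it.
GSTK1 kept intron: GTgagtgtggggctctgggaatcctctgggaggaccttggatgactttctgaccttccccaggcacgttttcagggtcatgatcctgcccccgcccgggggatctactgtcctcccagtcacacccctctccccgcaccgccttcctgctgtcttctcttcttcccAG
GSTK1 36-base exon: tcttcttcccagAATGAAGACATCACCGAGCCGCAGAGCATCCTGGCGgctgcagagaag

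The share of the form that keeps the intron was lower with either ESRP in both lines. NM_001143679 took 22.4% of GSTK1 in the MIA-PaCa2 control, then 17.0% (ESRP1) and 16.0% (ESRP2). In PANC-1 it took 21.2%, 13.8% and 15.4%. Each LPCX library was thus above the 4 ESRP libraries. How many transcripts of other genes had such an order was not counted. The moves from LPCX ran from -5.42 to -7.34 points, under the step of 10 points used for counting. Per TPM of the main form, the intron-keeping form measured 0.337, 0.225 and 0.205 for MIA-PaCa2 libraries, while PANC-1 libraries had 0.284, 0.164 and 0.193.

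The main form, NM_015917, took the opposite course, with 66.5%, 75.3% and 77.8% for MIA-PaCa2 libraries and 74.5%, 84.2% and 79.9% for PANC-1 libraries. The form without the 36-base exon had a higher share in each MIA-PaCa2 library than in any PANC-1 library. How many transcripts of other genes separate the lines in this way was not counted. NM_001143680 took 10.7%, 7.33% and 5.83% for MIA-PaCa2, against 3.82%, 2.02% and 3.94% for PANC-1. NM_001143681, which leaves out an exon of 129 bases, stayed at or under 0.758%. A share moved by 10 points or more in 1 of the 4 comparisons, MIA-PaCa2 with ESRP2, at 11.4 points. Such a move was seen in 19.2% of genes in that comparison, and in 17.1% for MIA-PaCa2 ESRP1, 15.1% for PANC-1 ESRP1 and 16.6% for PANC-1 ESRP2. In MIA-PaCa2 the largest GSTK1 move was above that of 79.2% (ESRP1) and 84.4% (ESRP2) of genes. In PANC-1 it was above that of 83.6% and 65.1%. The moves were thus larger than the median gene's, but of a size that many genes showed between single libraries. The 2 ESRP libraries of a line share 1 LPCX library. The shares are the authors' split of reads among overlapping transcripts.

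**Figure D4:**
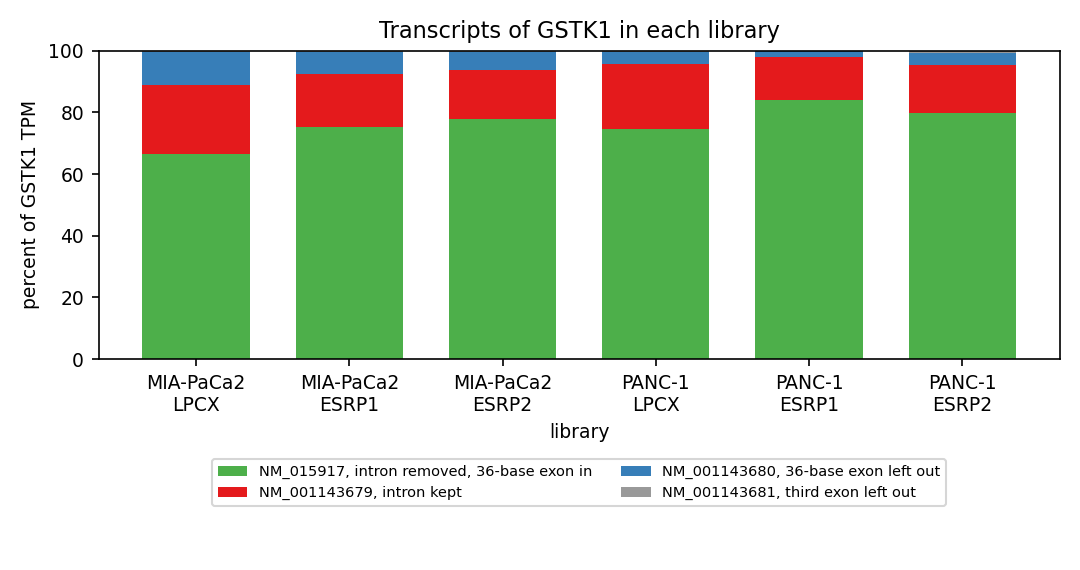
Percent of GSTK1 TPM in each of 4 transcripts (stacked bars) for the 6 libraries. The intron-keeping form takes 22.4% and 21.2% in the LPCX libraries of MIA-PaCa2 and PANC-1 and 13.8% to 17.0% in the ESRP libraries.

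Of the 20 listed glutathione transferases other than GSTK1, those that reached 5 TPM were within 2-fold of LPCX, with 0 of 14 in MIA-PaCa2 and 0 of 13 (ESRP1) and 0 of 12 (ESRP2) in PANC-1 at that size. The shares of all genes at that size in either direction are those given with the Eph list, from 0.368% to 1.58%. Their median log2 ratios were -0.01 and -0.11 in MIA-PaCa2 with ESRP1 and ESRP2, against 0.04 and 0.05 over all genes. In PANC-1 they were 0.08 and -0.08, against 0.09 and 0.10. GSTP1, the main cytosolic form, stood at 295 to 308 TPM in MIA-PaCa2 and 327 to 346 TPM in PANC-1.

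CASP2 had like levels in all 6 libraries. It was at 27.7, 28.2 and 31.7 TPM in MIA-PaCa2 and at 23.5, 29.2 and 27.1 TPM in PANC-1. The lines overlap, and the LPCX library was the lowest of each line. Of all genes compared, 60.2% to 68.8% were above LPCX in the comparisons with an ESRP. With median ratio scaling the MIA-PaCa2 ratio of CASP2 with ESRP1 was -0.0068, so LPCX was then not the lowest there. Over both lines the log2 difference from LPCX was 0.16 for ESRP1 and 0.19 for ESRP2 (SE 0.0996, adjusted p = 0.681 and 0.421 with limma), and PANC-1 was at -0.13 against MIA-PaCa2 (SE 0.0813, adjusted p = 0.185 with limma). None of the 3 passed. Without PANC-1 ESRP1 the ESRP1 value was 0.028, without PANC-1 LPCX 0.092, and without MIA-PaCa2 ESRP1 0.30. Without either ESRP1 library the line difference was -0.22. For ESRP1 limma called 1 of 11829 genes higher (0.00845%) and 0 lower (0.0%), with 820 at an unadjusted p under 0.05. For ESRP2 it called 1 higher (0.00845%) and 1 lower (0.00845%), with 1634 at an unadjusted p under 0.05.

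NM_032982 held 91.4% to 95.4% of CASP2 in the 6 libraries, and the largest move of a CASP2 share was 2.96 points. NM_032983, whose paired transcript has 108 codons, stayed at or under 1.55%. GENCODE pairs NM_032982 and NM_001224 with the same transcript, so the difference between these forms is not described. Of the other caspases and partners of the caspase-2 platform, 11 of 14 reached 5 TPM in MIA-PaCa2 and 10 in PANC-1. Of these 1 was 2-fold from LPCX, in MIA-PaCa2 with ESRP2, where 0.808% of all genes were lower and 0.808% higher. CASP4, an inflammatory caspase, was at 80.3, 90.1 and 34.3 TPM in MIA-PaCa2, a log2 ratio of -1.21 with ESRP2. The list medians were 0.10 and 0.01 for ESRP1 and ESRP2 in MIA-PaCa2, then 0.07 and 0.10 for PANC-1, against the medians over all genes of 0.04, 0.05, 0.09 and 0.10. PIDD1, the scaffold that activates CASP2, was at 14.5 to 15.8 TPM in MIA-PaCa2 and 32.3 to 41.5 TPM in PANC-1.

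The lists around TRPV6, KEL and CLCN1 held no gene that reached 5 TPM and was 2-fold from LPCX, against 0.368% to 1.58% of all genes in either direction. Of 23 TRPV channel and calcium transport genes, 9 to 12 reached 5 TPM, of 8 Kell-related genes 3, and of 10 CLC genes 6. For ESRP1 and ESRP2 in PANC-1 the median log2 ratios were 0.07 and 0.03 for the calcium list, -0.01 and 0.14 for the Kell list and -0.06 and 0.12 for the CLC list, against 0.09 and 0.10 over all genes. In MIA-PaCa2 they were 0.05 and -0.02, -0.01 and -0.08, and -0.03 and 0.00054, against 0.04 and 0.05. TRPV2, a relative of TRPV6, was at 28.0 to 31.2 TPM in PANC-1 and at 1.17 to 1.42 TPM in MIA-PaCa2. TRPV4 went the other way, at 0.109 TPM or less in PANC-1 and 5.05 to 5.68 TPM in MIA-PaCa2. Over both lines TRPV1 was at 4.81 to 6.24 TPM and TRPV3 at 0.757 TPM or less. XK, the membrane partner of the Kell protein, was at 2.99 to 3.50 TPM in PANC-1 and at 0 in MIA-PaCa2.

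EPHB6 and TRPV6 are left aside here, since they were chosen by their levels and TRPV6 reached 5 TPM only in LPCX. No other gene nearby that reached 5 TPM was 2-fold lower in PANC-1. Over all genes compared, 1.14% were with ESRP1 and 1.58% with ESRP2, so finding no other among so few says little. The nearest other gene at 5 TPM, GSTK1, starts 408 kb from the EPHB6 start. The table holds 31 genes within 500 kb of the span, 24 of them outside the 7. Of these 24, 19 were under 1 TPM in every library. ZYX, which encodes the focal adhesion protein zyxin, and TCAF1 reached 5 TPM. ZYX was at 152, 168 and 189 TPM in PANC-1 and 201, 233 and 183 TPM in MIA-PaCa2. TCAF1, a regulator of a cold-sensing channel, was at 18.3, 20.2 and 21.6 TPM in PANC-1 and 49.7, 49.0 and 55.8 TPM in MIA-PaCa2. In PANC-1 both had positive ratios, as did 68.8% of genes compared with ESRP1 and 67.2% with ESRP2. EPHB6 and TRPV6 had negative ones. Within 1000 kb, 12 of 56 genes reached 5 TPM, and no further gene was 2-fold lower in PANC-1.

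**Figure D5:**
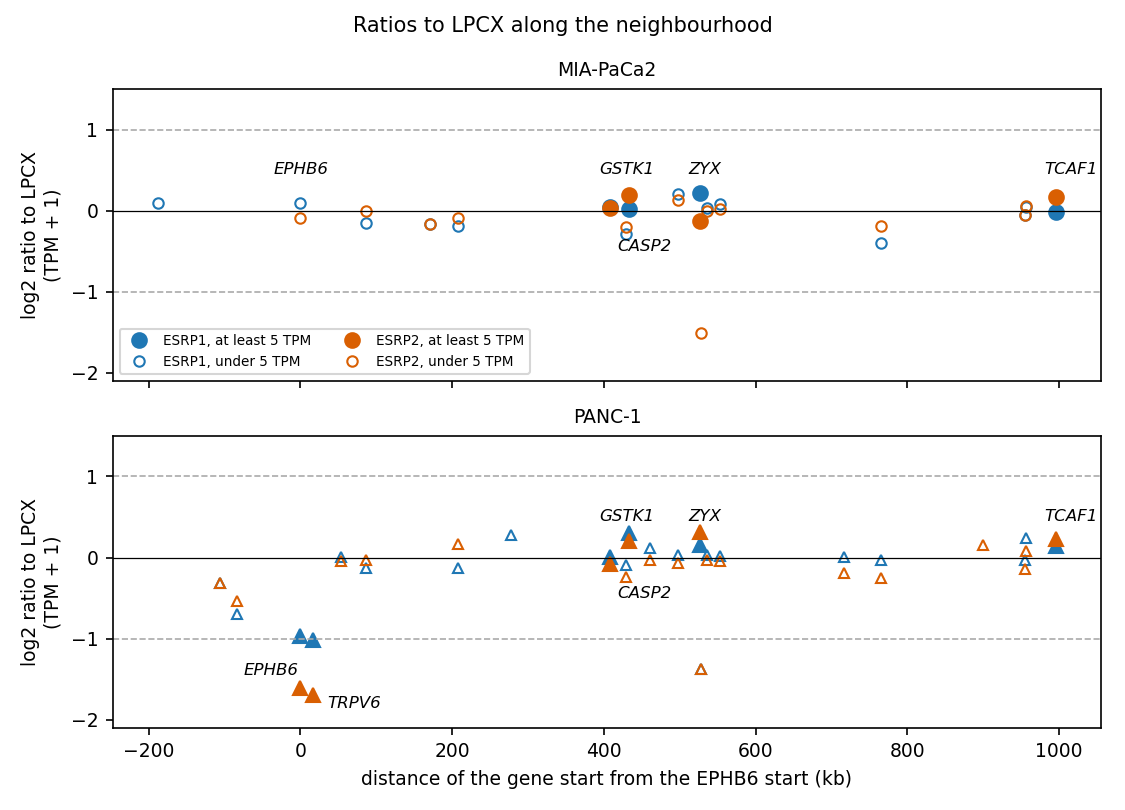
Log2 ratio of TPM plus 1 to LPCX (vertical) by distance of a gene's start from that of EPHB6 in kb (horizontal) in MIA-PaCa2 above and PANC-1 below. Filled points have at least 5 TPM in a library compared, and of these only EPHB6 and TRPV6 in PANC-1 lie near or below -1. Both were chosen by their levels in these libraries, and TRPV6 is filled only through its LPCX level, so nothing is read from their place. GSTK1, CASP2, ZYX and TCAF1 lie between -0.13 and 0.32, and the low open points beyond 500 kb are MIR6892, at 1.84 TPM or less.

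Genes with the most similar pattern were taken by Pearson's correlation of log2 of TPM plus 1 over the 6 libraries, as a description. For EPHB6 these were MEG8, TMEM14A, TMSB15B, C20orf166-AS1 and NREP, with correlations of 0.9994 to 0.9995. The 6 points fall into 2 cell lines that differ in level, and 4.18% of 11828 genes had a correlation over 0.99 with EPHB6. MEG8, a noncoding RNA, was at 10.5, 8.35 and 6.21 TPM in PANC-1 and at 0 in MIA-PaCa2. For TRPV6 they were NFKBIZ, SNORD114-1, RPA3, POLG and SNORD114-10. NFKBIZ, a nuclear regulator of NF-kB targets, was at 13.6, 8.12 and 6.02 TPM in PANC-1 and at 2.93 to 3.41 TPM in MIA-PaCa2. EPHB6 and TRPV6 had a correlation of 0.97 with each other, below the 0.99 that 4.18% of genes passed with EPHB6. Both were chosen by their levels in these libraries, so nothing is read from that value.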

How the data were processed

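The authors deposited 1 table of TPM per RefSeq transcript, made with Salmon on GRCh38 (hg38) per the submitters' processing notes. The sources used here name no version or annotation. Of 67792 lines, 8664 repeat another with identical values, among them those of EPHB6, TRPV6, TRPV5 and KEL, and were dropped. Columns were matched by line and construct. The header of MIA-PaCa2 ESRP2 reads ESRP12 and that of MIA-PaCa2 LPCX misspells the line, so both were matched by elimination.

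TPM were summed per symbol. Ratios are of TPM plus 1, counted from 2-fold where a library had at least 5 TPM. Transcript shares were counted from 10 points. The limma test (version 3.58.1, R 4.3.3) was fitted to 11829 genes that reached 5 TPM in 2 or more libraries, on the same log2 scale. Its terms were the construct and the line, leaving 2 residual degrees of freedom, and Benjamini-Hochberg adjustment at 0.05. On simulated data with changes of 2-fold or more it recovered most of the changes put in, with more false calls than the nominal share. Smaller changes, such as the differences given for GSTK1 and CASP2, were not simulated. The spread it uses is between libraries of different constructs, not repeat cultures. Named genes were the 7 genes, ESRP1 and ESRP2, up to 6 genes per family list past 2-fold, and the 5 genes most like EPHB6 and TRPV6, besides examples from the fixed lists chosen after their values were seen. The 6 family lists and 7 marker lists, like the genes, were chosen with earlier results of these data known. Epithelial, mesenchymal, leukocyte, acinar, muscle and kidney markers were summed per library, and erythroid markers are given in part, since 1 result is not reported here. Alternatives are given in the closing section.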

Additional observations from a re-analysis of the deposited data

Results flagged for a closer look

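Values with opposite signs in the 2 lines are given here, and the differences between the lines were not tested. GSTK1 with ESRP2 had a log2 ratio to LPCX of -0.085 in PANC-1 and 0.028 in MIA-PaCa2. With median ratio scaling both were negative, at -0.16 and -0.018. The share of NM_001143680 of GSTK1 with ESRP2 differed from LPCX by 0.126 points in PANC-1 and by -4.91 points in MIA-PaCa2. The share of NM_032982 of CASP2 differed by 2.96 points with ESRP1 in PANC-1 and by -1.98 points in MIA-PaCa2, and with ESRP2 by -0.939 and 0.932 points.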

How the results depend on the processing

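The 4 PANC-1 ratios of EPHB6 and TRPV6 kept their direction under pseudocounts of 0.1 and 0.5 TPM, median ratio scaling, coding transcripts only and repeated lines kept. With median ratio scaling EPHB6 with ESRP1 went past 2-fold, at -1.04, so that 2 rather than 1 of the 7 genes were past it, and no other count of these genes moved. Genes called by limma for ESRP2, 2 in all, became 0 with a pseudocount of 0.1 TPM, 0 with no filter, 0 with a filter of 1 TPM and 1 with no trend, and ranged from 0 to 30 when each library was left out (30 without MIA-PaCa2 ESRP2, 13 without PANC-1 ESRP2, 0 without each other library). The count for the line ranged from 8361 to 9061. GSTK1 against LPCX, near 0, turned to -0.027 for ESRP1 with median ratio scaling. Leaving out each library gave -0.014 (without MIA-PaCa2 LPCX) to 0.065 for ESRP1, and -0.073 to 0.016 (without PANC-1 ESRP2) for ESRP2, which was 0.011 without PANC-1 LPCX. With median ratio scaling the MIA-PaCa2 ratio of GSTK1 with ESRP2 was -0.018 and its PANC-1 ratio with ESRP1 -0.068. Under the same scaling the MIA-PaCa2 ratio of CASP2 with ESRP1 was -0.0068. Leaving out each library gave CASP2 values of 0.028 to 0.30 for ESRP1, 0.12 to 0.27 for ESRP2 and -0.22 to -0.085 for the line. The line difference of GSTK1 passed under each of these settings. Within the 3 PANC-1 libraries the named like genes had correlations of 0.984 to 0.992 with EPHB6 and 0.962 to 0.999 with TRPV6, and within MIA-PaCa2 none was run. Of the genes named as most like EPHB6 and TRPV6, 2 of 5 each had the highest Spearman correlation. The GSTK1 share move of 11.4 points does not reach a step of 20. The cause of these changes was not tested. The labels give no replicate numbers, so libraries could be paired by cell line alone. With the line as a term, the limma fit itself compares each ESRP library with the LPCX library of its own line. Depth is unknown, so values near 0 TPM carry no stated precision.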

Other observations

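Trypsinogen genes on the other side of EPHB6 were listed near 0. PRSS2 was at 0.815, 0.123 and 0.252 TPM and PRSS1 at 0.246, 0 and 0 TPM in PANC-1 (LPCX, ESRP1, ESRP2), and both were at 0 in MIA-PaCa2. The acinar markers, which include both genes, summed to 1.54, 0.295 and 0.597 TPM in PANC-1 and to 0 in MIA-PaCa2. ATP2B4, a calcium pump of the plasma membrane, was at 14.3, 10.7 and 8.63 TPM in PANC-1 and at 73.5, 77.7 and 88.6 TPM in MIA-PaCa2, within 2-fold of LPCX in each comparison. CALB2, the calcium-binding protein calretinin, was at 363, 434 and 495 TPM in MIA-PaCa2 and at 0.698 TPM or less in PANC-1. Lysozyme, the message of LYZ, was at 3.62, 9.84 and 7.70 TPM in MIA-PaCa2 and at 0.241 TPM or less in PANC-1, while the leukocyte markers summed to 4.19, 11.4 and 8.42 TPM in MIA-PaCa2 and to 0.575 to 1.10 TPM in PANC-1.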
